A study of Rattus norvegicus with 6 samples.

Results

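The genes of phase II conjugation described here encode glutathione S-transferases (GST, with the membrane-bound MGST), UDP-glucuronosyltransferases (UGT) and sulfotransferases (SULT). Members were the probe sets that the platform annotation lists with exactly 1 gene symbol beginning with Gst, Mgst, Ugt or Sult, leaving out Gstcd, and no expression value entered this choice. They were 50 of the 31099 probe sets on the array and stood for 46 of the 14218 genes that a probe set names alone. Of these genes 20 encode soluble GST, 3 MGST, 9 UGT and 14 SULT. A further 4 probe sets carry several symbols, at least 1 of them from these families, and are not members. Both that cover the Ugt1a enzymes are of this kind, so no Ugt1a gene is described by a member.

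Liver RNA from 6 rat samples was hybridised to 1-colour Affymetrix arrays. In the probiotic group (n = 3), rats ate a fat-rich diet for 30 d to become hypercholesterolemic and then received Lactobacillus casei Zhang, a lactic acid bacterium, in 1 ml of saline by gavage each day for another 30 d on the same diet. In the high-fat group (n = 3), rats had the same diet over the same times and received plain saline. The sources used here give no strain, sex or age, no group on a normal diet was analysed here, and both groups share the diet. Samples were picked from each group by chance, and nothing states that each came from its own rat, so the p-values measure the spread between these samples, which may be technical.

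Conjugating enzymes attach a polar group to drugs, steroids, bilirubin, bile acids and reactive products of lipid oxidation, which can then leave the cell through export pumps. GST enzymes use glutathione, UGT enzymes use UDP-glucuronic acid and SULT enzymes use the sulfate donor PAPS. The liver is a main site of all of these reactions. Several of the genes are induced through NRF2, which responds to electrophiles, or through the xenobiotic receptors PXR, CAR and AHR.

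Promoter windows are shown for the 3 genes with the smallest p in the comparison described further on (Gstt3, Ugt2b10 and Gstm7) and for Gstp1, a gene studied for its induction in rat liver. They are RefSeq sequences of assembly GRCr8, run 5′ to 3′ on the strand of the gene, and cover 250 bases before the gene's start and 50 after it. Capitals mark every match, on either strand, to 5 motifs. The core of the antioxidant response element was searched as TGACNNNGC and the core of the xenobiotic response element as GCGTG. An HNF1 motif was searched as GTTAAT, the core of C/EBP sites as TTGCNNAA and the TATA box as TATAAA.
Gstt3, chr20:12874368-12874667, + strand: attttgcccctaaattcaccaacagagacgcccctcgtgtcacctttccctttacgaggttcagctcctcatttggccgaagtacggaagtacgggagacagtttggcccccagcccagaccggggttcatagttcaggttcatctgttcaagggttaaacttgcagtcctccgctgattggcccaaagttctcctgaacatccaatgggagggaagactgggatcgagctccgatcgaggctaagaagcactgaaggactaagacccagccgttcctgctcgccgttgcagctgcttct
Ugt2b10, chr14:21462591-21462890, + strand: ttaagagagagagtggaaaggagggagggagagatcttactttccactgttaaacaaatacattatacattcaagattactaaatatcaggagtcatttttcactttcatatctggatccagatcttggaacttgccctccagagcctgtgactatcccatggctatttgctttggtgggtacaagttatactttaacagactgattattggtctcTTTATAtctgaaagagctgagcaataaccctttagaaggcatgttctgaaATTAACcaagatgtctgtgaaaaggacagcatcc
Gstm7, chr2:198260270-198260569, - strand: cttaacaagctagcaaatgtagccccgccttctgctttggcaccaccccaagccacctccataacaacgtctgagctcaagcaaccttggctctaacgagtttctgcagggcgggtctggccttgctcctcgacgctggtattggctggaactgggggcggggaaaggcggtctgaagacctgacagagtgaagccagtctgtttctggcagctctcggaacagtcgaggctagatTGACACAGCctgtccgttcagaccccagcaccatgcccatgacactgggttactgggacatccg
Gstp1, chr1:210769656-210769955, - strand: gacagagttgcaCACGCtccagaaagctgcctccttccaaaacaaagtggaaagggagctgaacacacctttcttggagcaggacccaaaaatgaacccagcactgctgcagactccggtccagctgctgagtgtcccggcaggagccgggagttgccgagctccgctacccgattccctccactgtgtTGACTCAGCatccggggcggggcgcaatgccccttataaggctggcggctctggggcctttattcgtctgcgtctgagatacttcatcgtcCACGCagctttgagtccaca
The Gstt3 window held none of the 5 motifs. The Ugt2b10 window held the TATA box at bases 217 to 222 and the HNF1 motif at bases 267 to 272, both on the opposite strand. The Gstm7 window held the antioxidant core at bases 237 to 245, and the Gstp1 window held it at bases 190 to 198 beside xenobiotic cores, on the opposite strand, at bases 13 to 17 and 281 to 285.

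Windows were listed for 39 of the 46 member genes. The antioxidant core was in 6 of these 39 (15.4%), against 12.2% of the windows of all 27457 genes, and all 6 were among the 17 soluble GST genes with a window (Gsta1, Gsta3, Gstm5, Gstm7, Gstp1 and Gstz1). The C/EBP core was in 12 of 39 (30.8%), against 10.5% of all genes, with 5 of 12 SULT genes and 4 of 8 UGT genes among them. The TATA box was in 11 of 39 (28.2%), against 14.3%. The HNF1 motif was in 5 of 39 (12.8%), against 7.37%, and the xenobiotic core in 9 of 39 (23.1%), against 31.1%. These are counts of letters in short windows, given with no test. Several members are close paralogs whose windows are not independent: the C/EBP core stood at bases 94 to 101 in both Sult2a1 and Sult2a6.

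Most of the conjugation probe sets gave a strong signal. Of the 50, 29 (58%) had a mean deposited signal of at least 1000 units over the 6 arrays, against 14.3% of all 31042 probe sets other than controls. By family the count was 13 of 21 for soluble GST, 3 of 3 for MGST, 6 of 11 for UGT and 7 of 15 for SULT. A probe set's signal depends on its probes as well as on its transcript, so these levels do not rank the genes by abundance. Mean signals of the tested soluble GST probe sets ran from 120.5 to 36581 units in the probiotic group and from 99.97 to 40110 units in the high-fat group. Those of MGST ran from 5970 to 54604 units in the probiotic group and from 7079 to 61591 in the high-fat group. Tested UGT probe sets spanned 58.8 to 32703 units in the probiotic group and 101.1 to 36558 in the high-fat group, and tested SULT probe sets 173.0 to 43762 units in the probiotic group and 247.6 to 43195 in the high-fat group. Every family except MGST thus held tested probe sets on both sides of 1000 units, and the probe sets that were not tested lay at group means of 2.63 to 69.8 units.

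A filter on low signal, a mean at or above the 40th percentile of all probe sets (6.30 on the log2 scale used below), kept 39 of the 50 probe sets, for 37 genes. The scale is log2(intensity + 16) after quantile normalization. The 11 that did not pass belong to 9 genes, and 7 of the 11 are SULT probe sets. They were Gsta3l1, Gstm6l, Ugt8 (2 probe sets), Sult1d1, Sult2a1, Sult2a2, Sult2b1 (2 probe sets), Sult4a1 and Sult6b2, with values between 4.09 and 7.34 in the 6 samples. Ugt8 makes galactosylceramide, a lipid of myelin, and Sult4a1 is known from brain. Nearest to the limit lay Gstm6l below it, with a mean of 6.10, and Ugt2b7 above it, with a mean of 6.48. Sult1d1 was 5.93, 4.30 and 4.74 in probiotic samples 1, 2 and 3, against 4.25, 4.23 and 4.13 in high-fat samples 1, 2 and 3. Its groups do not overlap, but all of these values lie below the filter, and it was not tested.

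**Figure D1:**
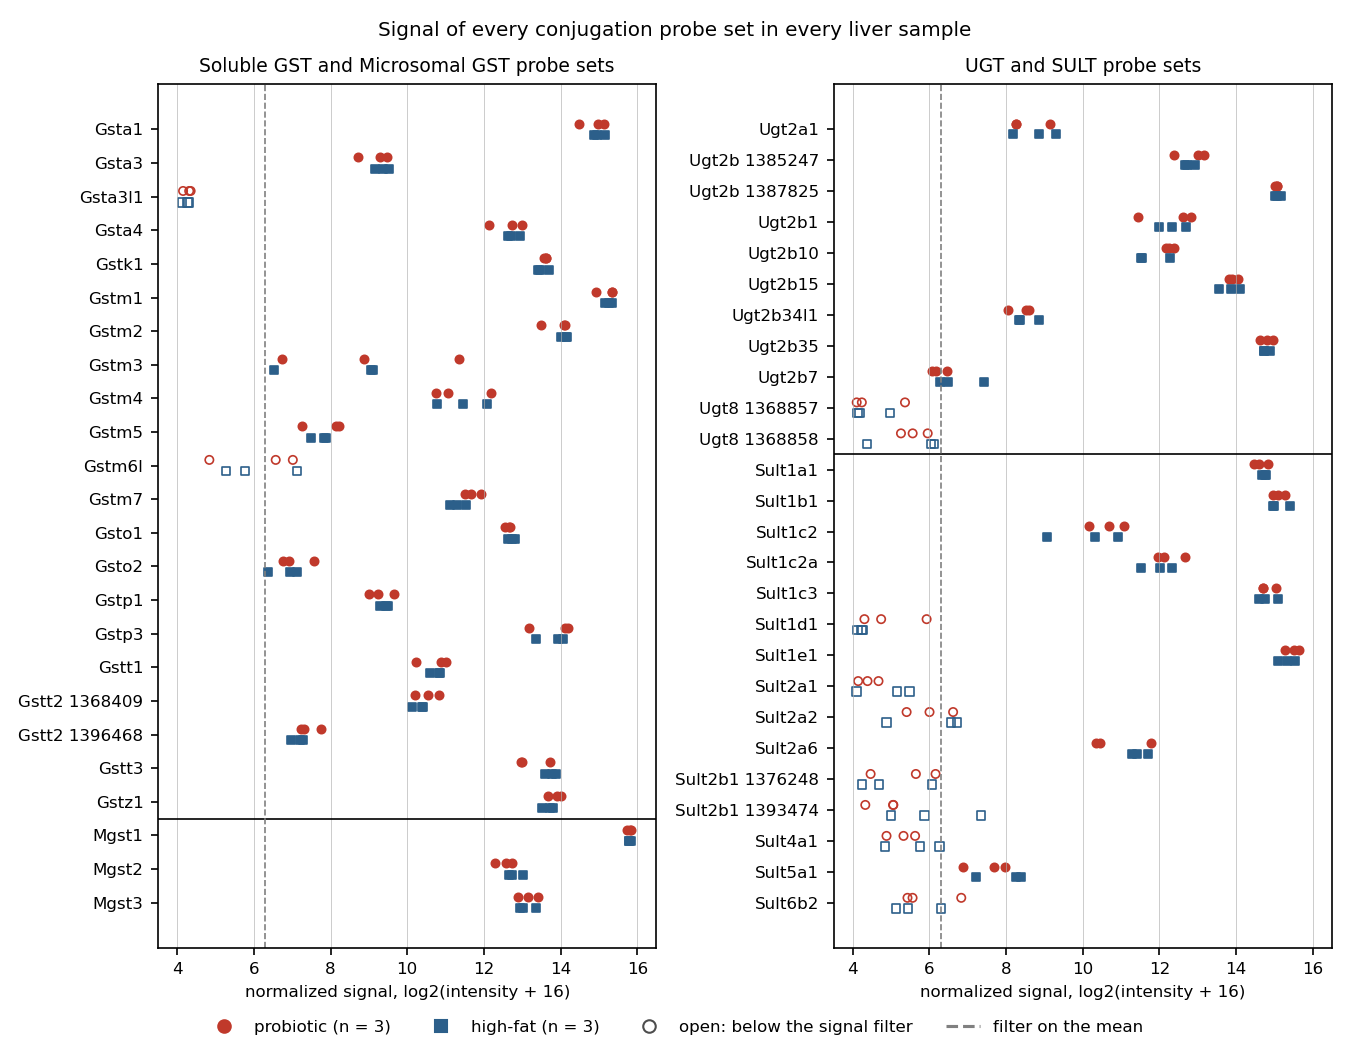
Normalized log2 signal (x axis) of each of the 50 conjugation probe sets (rows) in every liver sample, with probiotic samples as circles above and high-fat samples as squares. Open symbols mark the 11 probe sets below the signal filter, and among the 39 tested probe sets the samples of the groups overlap in every row.

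Probiotic livers were set against high-fat livers to ask which transcripts differ when the bacterium is given on a fat-rich diet. No conjugation gene passed the test. Of the 39 member probe sets tested with limma, 0 had an adjusted p under 0.05, against 0.0215% (4 of 18625) of all probe sets tested, and the smallest adjusted p among them was 0.726. At an unadjusted p under 0.05 there was 1 member, Gstt3 (2.56% of the 39), against 6.85% of all probe sets. The groups overlapped in all 39, whereas they did not overlap in 12.7% of all probe sets. In 1 of the 39 the groups did not overlap with median centring, against 8.85% of all probe sets, and likewise in 1 with no normalization between arrays, against 11.9%. Values were higher in the probiotic group for 18 members and lower for 21, where 49.5% of all probe sets were lower, and the median log2 difference, probiotic minus high-fat, was -0.02, against 0.00416 over all probe sets tested.

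Under quantile normalization the samples bound many of these differences closely, as they did for other bright probe sets. For 16 of the 39 members (41%) the 95% interval of the difference lay within 1.5-fold in either direction, against 12.2% of all probe sets tested and 38% of the 4454 tested probe sets with a mean signal of at least 1000 units. All 16 belong to the 29 members of that signal (55.2%). With no normalization between arrays the count was 12 of 39, or 12 of the 29 bright members (41.4%), against 35% of the bright probe sets. With median centring it was 6 of 39, or 6 of the 29 bright members (20.7%), against 2% of the bright probe sets. The 16 were Gsta1, Gstm1, Gstt1, Gstk1, Gstz1, Gsto1, Mgst1, Mgst3, Ugt2b (both probe sets), Ugt2b15, Ugt2b35, Sult1a1, Sult1b1, Sult1c3 and Sult1e1. The median standard deviation within groups was 0.26 on the log2 scale for the members, against 0.36 over all probe sets tested and 0.24 over the bright ones. The 8 members whose interval went beyond 2-fold, and on which the 6 samples set no close limit, were Gstm3, Gstm4, Gsto2, Ugt2a1, Ugt2b7, Sult1c2, Sult2a6 and Sult5a1.

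**Figure D2:**
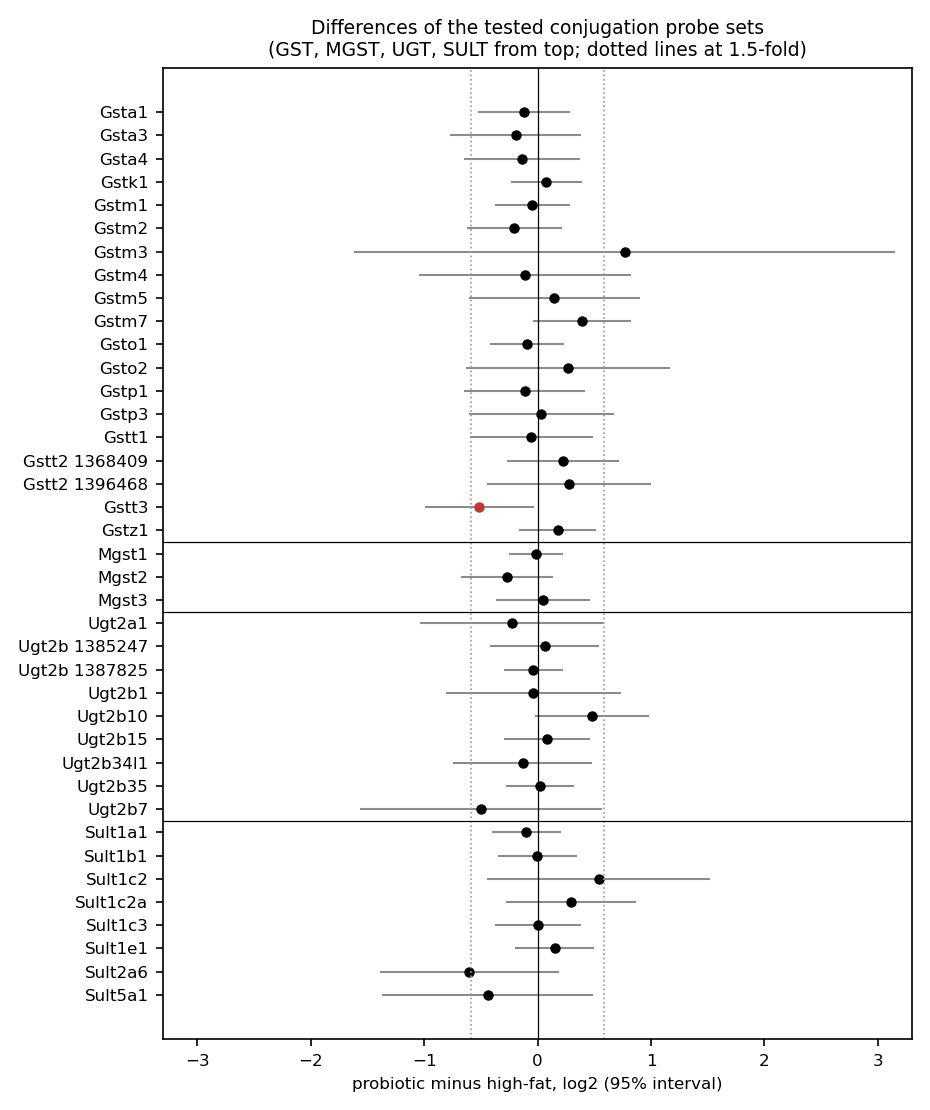
Log2 difference, probiotic minus high-fat (x axis), with its 95% interval for the 39 tested conjugation probe sets (rows), in the order soluble GST, MGST, UGT and SULT. Gstt3, in red, is the member with an unadjusted p under 0.05, and dotted lines mark 1.5-fold.

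Among the genes of theta GST, a class regarded as ancient, Gstt3 had the smallest p of all members. Gstt3 had log2 signals of 13.00, 12.98 and 13.74 in the probiotic samples, against 13.87, 13.61 and 13.78 in the high-fat samples. Probiotic samples 1 and 2 lay below every high-fat sample, and probiotic sample 3 lay among them. Means of 13.24 ± 0.43 for probiotic and 13.75 ± 0.13 for high-fat samples (SD, n = 3 each) differed by -0.51, a 1.43-fold lower level with SE 0.21 and a 95% interval of -0.99 to -0.04. In limma the unadjusted p was 0.0365 and the adjusted p 0.726. The unadjusted p was 0.00166 without probiotic sample 3 (adjusted p = 0.913 with limma) and between 0.0446 and 0.123 without any other sample. Gstt1, which also turns dihalomethanes into reactive products, was 10.87, 10.23 and 11.02 in the probiotic samples and 10.83, 10.59 and 10.85 in the high-fat samples, a difference of -0.05 (95% interval -0.58 to 0.48). Gstt2 had differences of 0.23 and 0.27 at its 2 probe sets, so the theta genes did not share a direction.

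The alpha GST genes reduce organic hydroperoxides and conjugate products of lipid peroxidation, and the 3 that were tested had small negative differences. Gsta1 was 15.14, 14.48 and 14.98 in the probiotic samples, against 15.15, 14.86 and 14.94 in the high-fat samples (difference -0.12, adjusted p = 0.891 with limma). Gsta3 was 8.71, 9.46 and 9.29 in the probiotic samples, against 9.36, 9.16 and 9.52 (difference -0.19). Gsta4, which acts on the lipid peroxidation product 4-hydroxynonenal, was 12.99, 12.14 and 12.73 in the probiotic samples, against 12.95, 12.62 and 12.70 (difference -0.14). Probiotic sample 2 gave the lowest value of Gsta1 and Gsta4 and the second highest of Gsta3, and without that sample the differences of Gsta1 and Gsta4 were 0.07 and 0.11.

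The mu GST genes, a cluster of close copies active on epoxides and quinones, included both steady and widely varying members. Gstm1 was 15.35, 14.93 and 15.35 in the probiotic samples, against 15.33, 15.16 and 15.27 in the high-fat samples, a difference of -0.04 (95% interval -0.36 to 0.28). Gstm2 was 14.12, 13.49 and 14.09 in the probiotic samples, against 14.18, 14.13 and 14.01 (difference -0.20). Both had their lowest value in probiotic sample 2 and otherwise varied little. Gstm7 had the third smallest p of the members and is given in full for that reason, after its values were seen. It was 11.67, 11.52 and 11.92 in the probiotic samples, against 11.52, 11.30 and 11.11 in the high-fat samples, a difference of 0.39 (SE 0.19, unadjusted p = 0.0656, adjusted p = 0.732 with limma). High-fat sample 1 equalled the lowest probiotic sample to the second decimal, and the other high-fat samples lay below all of the probiotic ones.

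Gstm3 and Gstm4, also named after their values were seen, differed more between samples of a group than between groups. Gstm3 was 6.74, 11.35 and 8.88 in the probiotic samples, against 9.04, 6.52 and 9.11 in the high-fat samples, the widest range of any tested member (4.83 on the log2 scale). The difference of 0.77 (SE 1.05) became 1.90 when probiotic sample 1 was left out, -0.41 when probiotic sample 2 was, and -0.10 when high-fat sample 2 was. Gstm4 was 12.19, 10.74 and 11.05 in the probiotic samples, against 10.77, 12.09 and 11.45 in the high-fat samples (difference -0.11, SE 0.41). Where Gstm3 was lowest, in probiotic sample 1 and high-fat sample 2, Gstm4 was highest, and where Gstm3 was highest, in probiotic sample 2, Gstm4 was lowest. Probe sets of such close copies can pick up signal from each other's transcripts, and the assignment to 1 gene is uncertain. Whether this has any part in the opposite pattern of Gstm3 and Gstm4 was not tested. Gstm5 had a difference of 0.15 (SE 0.33).

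The remaining soluble GST genes had differences between -0.11 and 0.27. Gstp1, the pi enzyme that is low in normal rat hepatocytes and marks preneoplastic foci in rat liver, was 9.02, 9.66 and 9.23 in the probiotic samples, against 9.45, 9.28 and 9.50 in the high-fat samples (difference -0.11, 95% interval -0.64 to 0.41). Gstp3, its neighbour in the family, had a difference of 0.03 (SE 0.28) and was lowest in probiotic sample 2, at 13.18. Gstz1, the maleylacetoacetate isomerase of tyrosine breakdown, was 13.91, 13.68 and 14.01 in the probiotic samples, against 13.81, 13.52 and 13.73 (difference 0.18). Gstk1, found in mitochondria and peroxisomes, was 13.61, 13.56 and 13.63 in the probiotic samples, against 13.47, 13.69 and 13.41 (difference 0.08, 95% interval -0.23 to 0.38). The omega enzymes, which reduce dehydroascorbate, had differences of -0.09 (Gsto1, SE 0.14) and 0.27 (Gsto2, SE 0.40).

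Mgst1, the abundant glutathione transferase and peroxidase of the endoplasmic reticulum, was the steadiest tested member on the normalized scale. It had log2 signals of 15.81, 15.74 and 15.85 in the probiotic samples, against 15.80, 15.80 and 15.85 in the high-fat samples. All 6 lay within 0.11 of each other, the difference was -0.02 and its 95% interval ran from -0.24 to 0.21. The deposited signals were 55307, 49549 and 58955 units in the probiotic samples, against 48468, 80111 and 56193 units in the high-fat samples. Quantile normalization gives the brightest probe sets of every array nearly the same values, so the normalized values of Mgst1 vary less than these. Mgst2, which can make leukotriene C4, had a difference of -0.27 (SE 0.18), and Mgst3, of the same membrane family, 0.05 (SE 0.18). All 3 had their lowest value in probiotic sample 2.

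Of the UGT genes, Ugt2b10 had the smallest p. It was 12.37, 12.24 and 12.18 in the probiotic samples, against 12.28, 11.52 and 11.55 in the high-fat samples, a difference of 0.48 (SE 0.22, 95% interval -0.02 to 0.97, unadjusted p = 0.0563, adjusted p = 0.728 with limma). High-fat sample 1 lay among the probiotic samples and the other high-fat samples lay below all of them. It is given in full after its values were seen. Without high-fat sample 1 the difference was 0.72 (unadjusted p = 0.00305, adjusted p = 0.378).

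Ugt2b1, which glucuronidates testosterone and morphine in rat, was 12.60, 11.45 and 12.83 in the probiotic samples, against 11.99, 12.68 and 12.33 in the high-fat samples. Means of 12.30 ± 0.74 for probiotic and 12.33 ± 0.35 for high-fat samples (SD, n = 3 each) differed by -0.04 (SE 0.34), and by 0.38 without probiotic sample 2, the lowest of all. The brighter of the Ugt2b probe sets, also named after its values were seen, was 15.07, 15.05 and 15.02 in the probiotic samples, against 15.07, 15.17 and 15.01 in the high-fat samples, a difference of -0.04 (95% interval -0.29 to 0.21). The other Ugt2b probe set had a difference of 0.07 (SE 0.21, 95% interval -0.41 to 0.54), of opposite sign. The 5 UGT2 probe sets not yet described had differences from -0.50 (Ugt2b7, SE 0.47) to 0.08 (Ugt2b15, SE 0.16), with Ugt2a1, known from olfactory epithelium, at -0.23 (SE 0.35), Ugt2b34l1 at -0.13 (SE 0.27) and Ugt2b35 at 0.02 (SE 0.13). Of the 9 UGT probe sets tested, 4 had higher and 5 lower values in the probiotic group.

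Of the SULT genes, the bright SULT1 members did not separate the groups. Sult1a1, the sulfotransferase of phenols, was 14.83, 14.60 and 14.48 in the probiotic samples, against 14.76, 14.77 and 14.66 in the high-fat samples (difference -0.10, 95% interval -0.39 to 0.20). Sult1b1, which acts on phenols and thyroid hormones, was 15.27, 14.96 and 15.09 in the probiotic samples, against 14.95, 15.39 and 14.99 (difference -0.00212, 95% interval -0.34 to 0.34). Sult1e1, the estrogen sulfotransferase, was 15.26, 15.50 and 15.65 in the probiotic samples, against 15.53, 15.32 and 15.09 (difference 0.15, 95% interval -0.19 to 0.49). In each of these genes the samples of the groups overlap. Sult1c3 was 15.04, 14.70 and 14.70 in the probiotic samples, against 15.09, 14.59 and 14.75 in the high-fat samples, a difference of 0.00365 (95% interval -0.36 to 0.37). Sult1c2 and Sult1c2a had differences of 0.54 (SE 0.43) and 0.30 (SE 0.25), and both were highest in probiotic sample 3 and lowest in high-fat sample 2. The difference of Sult1c2 was 0.02 when high-fat sample 2 was left out, and 0.95 when high-fat sample 3 was (unadjusted p = 0.0471, adjusted p = 0.749 with limma), the ends of its range over left-out samples.

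Sult2a6, a hydroxysteroid sulfotransferase that also acts on bile acids, had the lowest difference of the tested members. It was 11.77, 10.34 and 10.46 in the probiotic samples, against 11.27, 11.69 and 11.41 in the high-fat samples. Probiotic samples 2 and 3 lay below every high-fat sample, and probiotic sample 1 lay above all of them. Means of 10.86 ± 0.79 for probiotic and 11.46 ± 0.21 for high-fat samples (SD, n = 3 each) differed by -0.60 (SE 0.35), with an adjusted p of 0.740 in limma. Leaving out probiotic sample 1 gave -1.06 (unadjusted p = 0.000874, adjusted p = 0.230), and leaving out probiotic sample 2 gave -0.34. With the signal gap of the Actb control probe sets, described further on, as a covariate the difference was 0.24, of opposite sign. Sult2a1, of the same subfamily, was below the filter at 4.67, 4.39 and 4.14 in the probiotic samples and 5.15, 4.09 and 5.48 in the high-fat samples. Sult5a1 had a difference of -0.44 (SE 0.41). Of the 8 SULT probe sets tested, 4 had higher and 4 lower values.

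Many members shared their lowest sample. Probiotic sample 2 gave the lowest value of 19 of the 39 tested members (48.7%), against 22.3% of all probe sets tested, and it was the lowest sample for 9 of 19 soluble GST, 3 of 3 MGST, 5 of 9 UGT and 2 of 8 SULT probe sets. The median deviation of the members from their mean over the 6 samples was 0.14, -0.17 and 0.07 in probiotic samples 1, 2 and 3, against 0.10, -0.07 and 0.00723 in high-fat samples 1, 2 and 3. The lowest of these medians were those of sample 2 in each group, and the groups overlap. The median difference over the members was 0.09 without probiotic sample 2, which turned its sign. Between them, probiotic samples 1 and 3 held the highest value of 21 members, 11 and 10 in turn. These were 28.2% and 25.6% of the members, against 14.5% and 15.1% of all probe sets tested.

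**Figure D3:**
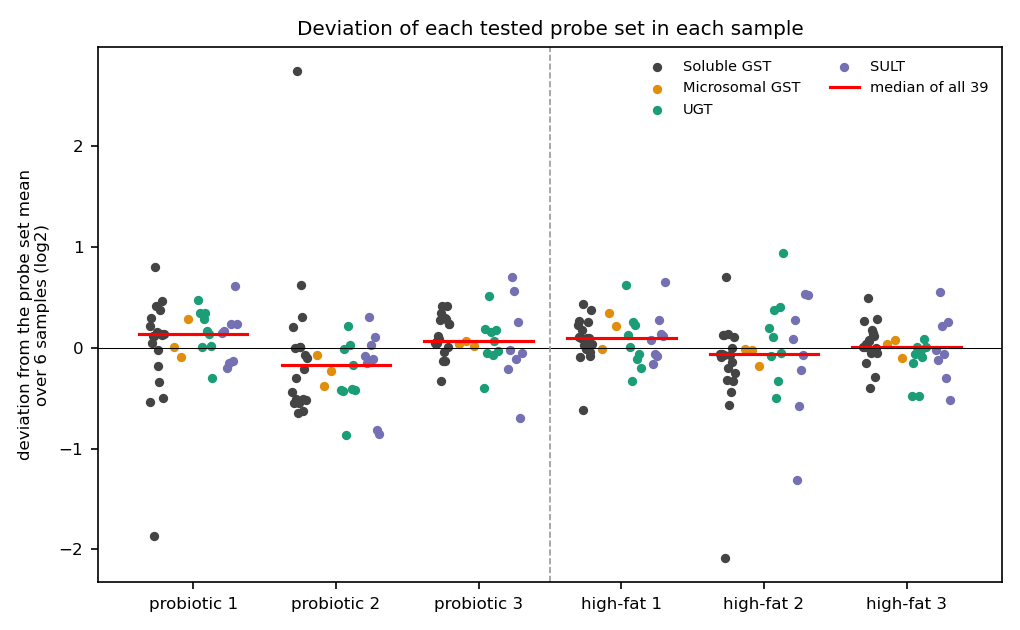
Deviation of each of the 39 tested conjugation probe sets from its own mean over the 6 samples (log2, y axis), by sample (x axis) and family (colour), with the median of all 39 as a red bar. The bar is lowest in probiotic sample 2, at -0.17. The points furthest out, in probiotic samples 1 and 2 and high-fat sample 2, are Gstm3, and Sult1c2 lay at -1.31 in high-fat sample 2.

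In the same sample the control probe sets for Actb differed most between the 3' and the 5' end of the transcript, a gap that is wider where RNA or cRNA is shorter. It was 2.11, 3.01 and 2.38 on the log2 scale in probiotic samples 1, 2 and 3, against 1.96, 1.59 and 1.96 in the high-fat samples (exact two-sided permutation p = 0.1, the smallest that 3 samples against 3 allow). The same gap for Gapdh was 0.71, 1.49 and 1.23 in the probiotic samples, against 0.52, 0.53 and 0.79 in the high-fat samples, with overlapping groups (exact two-sided permutation p = 0.2). It too was widest in probiotic sample 2. When the Actb gap entered the fit the median difference over the members was 0.21, against 0.016 over all probe sets tested. In that fit 3 members (7.69%) had an unadjusted p under 0.05 (Gstm3, Gstm4 and Ugt2b1, with Gstm3 at -2.74), against 2.38% of all probe sets, with 0 at an adjusted p under 0.05. This fit leaves 3 residual degrees of freedom and was chosen after the data were seen. The Actb gap did not overlap between the groups, so gap and group can hardly be told apart in this fit. The part of the gap in the members' values was not tested otherwise.

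Hepatocyte markers were bright in every sample. All 9 measured hepatocyte markers passed the filter, with a summed log2 signal of 18.80 to 18.84 in the probiotic group and 18.79 to 18.91 in the high-fat group. Quantile normalization holds the brightest probe sets nearly equal, so these sums could show little difference. Deposited Alb signals ran from 55435 units in high-fat sample 1 to 126788 in high-fat sample 2. Of the 9 markers 5 had higher and 4 lower values, and the groups did not overlap for Fgb (difference -0.29, unadjusted p = 0.0207 with limma). Of the 7 pancreatic acinar markers, 6 lay below the filter. Markers of Kupffer cells and macrophages had lower values in the probiotic group for 9 of 9 genes (summed log2 signal 13.68 to 14.00, against 13.98 to 14.40), where 49.5% of all probe sets were lower. Those of blood and erythroid cells had higher values for 5 of 5 (14.97 to 15.87, against 14.21 to 14.82). An unadjusted p under 0.05 was found for 1 Kupffer and 3 blood genes, and none passed the adjusted test. Over all probe sets 3.86% were called lower and 2.99% higher at that p. Every blood gene was highest in probiotic sample 2, and most of the Kupffer genes were highest in high-fat sample 2. Of the other marker lists, 3 of 5 cholangiocyte, 4 of 6 endothelial, 2 of 8 stellate and fibroblast and 2 of 3 small intestine genes had higher values. In whole liver, fewer cells of a type and less RNA per cell cannot be told apart, and the part of these cells in the members' values was not tested.

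Genes that supply, complement or control conjugation gave no adjusted call either. Of a list of 51 such genes, 44 were tested with their brightest probe set, 26 with higher and 18 with lower values in the probiotic group and a median difference of 0.06. Unadjusted p was under 0.05 for 8 of them, 3 higher and 5 lower, where 2.99% and 3.86% of all probe sets were called in these directions. The groups did not overlap in 6 of the 44, where they did not overlap in 12.7% of all probe sets. Of 13 tested genes of cosubstrate supply, which make, transport or recycle glutathione, UDP-glucuronic acid and PAPS, 9 had higher values and 4 lower. Cth, the enzyme that makes cysteine for glutathione, was 13.84, 13.59 and 13.63 in the probiotic samples, against 13.64, 13.10 and 12.72 in the high-fat samples (difference 0.53, unadjusted p = 0.0372, adjusted p = 0.726 with limma). Gclc, the catalytic subunit of glutathione synthesis, had a difference of 0.42 (SE 0.27), its partner Gclm -0.16 (SE 0.39), Ugdh, which makes UDP-glucuronic acid, 0.11 (SE 0.17), and the PAPS synthases Papss1 and Papss2 0.07 (SE 0.29) and 0.38 (SE 0.34).

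Other conjugating enzymes had higher values for 5 and lower values for 4 of 9 tested genes. Nat1, an arylamine N-acetyltransferase, was 9.38, 9.55 and 9.12 in the probiotic samples, against 9.93, 9.87 and 9.96 in the high-fat samples, with no overlap (difference -0.57, unadjusted p = 0.0204), whereas another Nat1 probe set gave 0.15. Baat, which joins bile acids to taurine and glycine, had a difference of 0.29 (SE 0.18). Nnmt, the nicotinamide N-methyltransferase, had a difference of -1.18 (SE 0.55), and its high-fat samples varied widely (SD 1.31). Of the 6 deconjugating enzymes, 3 had higher and 3 lower values. Arsa and Arsb, lysosomal sulfatases, had differences of 0.49 (unadjusted p = 0.0354) and -0.76 (unadjusted p = 0.0218), and their other probe sets -0.03 and -0.30. Dpep1, a dipeptidase of glutathione conjugate breakdown, had -1.06 (unadjusted p = 0.0182), with another tested probe set at -0.49. Of the 4 genes tested from the export list, 2 had higher and 2 lower values. Abcc2, the canalicular pump of conjugates, had -0.25 (SE 0.22), and the pumps Abcc4 and Abcg2 had -0.62 (SE 0.33) and 0.06 (SE 0.37). Rala, a small GTPase and not itself a pump, had 0.27 (SE 0.24).

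Among 12 regulators tested, 7 had higher and 5 lower values. Rxra, the partner of PXR and CAR on DNA, was 8.64, 7.80 and 7.97 in the probiotic samples, against 9.06, 9.17 and 8.98 in the high-fat samples, with no overlap (difference -0.94, SE 0.27, unadjusted p = 0.00712, adjusted p = 0.726 with limma). Arnt, the partner of AHR, was 7.61, 6.26 and 6.63 in the probiotic samples, against 7.70, 8.57 and 8.01, again with no overlap (difference -1.26, SE 0.42, unadjusted p = 0.0134). Both were lowest in probiotic sample 2. Nr1h4, the bile acid receptor, had a difference of 0.50 (unadjusted p = 0.0482). The receptors Ahr, Nr1i2 (PXR) and Nr1i3 (CAR) had differences of 0.31 (SE 0.39), -0.10 (SE 0.25) and 0.58 (SE 0.44), and Nfe2l2, which encodes NRF2, and its inhibitor Keap1 -0.05 (SE 0.36) and 0.02 (SE 0.24).

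**Figure D4:**
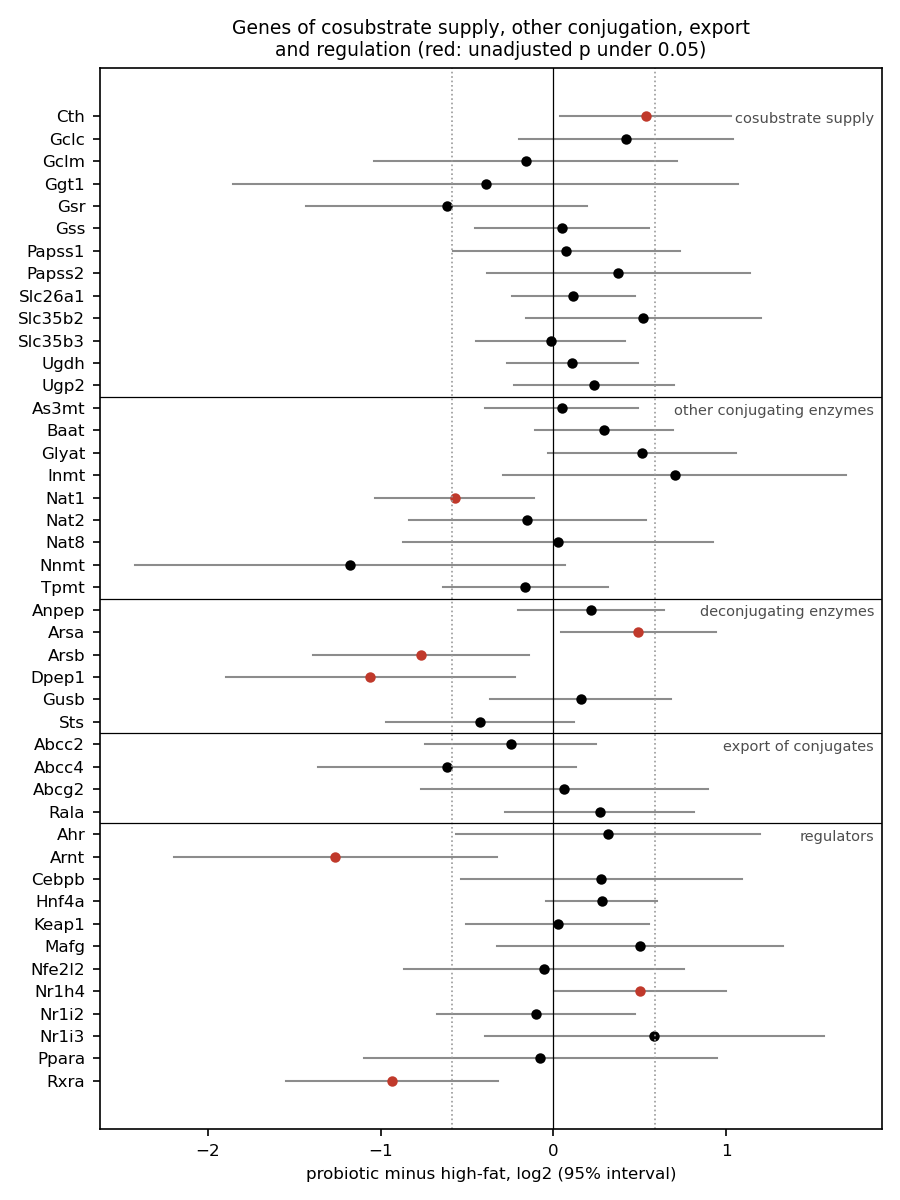
Log2 difference, probiotic minus high-fat (x axis), with its 95% interval for the 44 tested genes of cosubstrate supply, other conjugation, deconjugation, export and regulation (rows, brightest probe set of each gene). Red points mark the 8 genes with an unadjusted p under 0.05, among them Rxra and Arnt, and dotted lines mark 1.5-fold.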

How the data were processed

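The authors deposited a linear intensity for every probe set of each array, measured on biotinylated cRNA from liver, per the labels' protocols. The summarizing software is not given in the sources used here. Each array has a trimmed mean near 500 units (2% removed at each end), with median signals of 90.05 to 146.9. Because array medians of log2(intensity + 16) ranged from 6.73 to 7.35, beyond a limit of 0.2, the log2 values were quantile normalized, which holds the brightest probe sets close together. The test left out 57 control probe sets. Arrays correlated at 0.916 to 0.953 within groups and 0.885 to 0.959 between groups over 18625 tested probe sets, and their number limits the precision.

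Samples were grouped by title and compared with limma 3.58.1 in R 4.3.3 (lmFit and trended eBayes). P-values are two-sided and were adjusted by Benjamini-Hochberg over every probe set tested, at a threshold of 0.05. Of 46 member genes, 45 matched the rat RefSeq table of GRCr8 by gene identifier, with 0 symbols changed. Members were picked by gene symbol alone, with no expression value. That rule, the gene lists and the settings were chosen with earlier results of these data known. Values in every sample are given for members at an unadjusted p under 0.05 and for the 17 measured genes of a fixed set of 21, and others are marked as named after their values were seen. Lists were read from the brightest probe set of a gene. The fit was checked on simulated data. Alternatives changed the normalization, filter, pseudocount, variance model or array weights, blocked on the replicate number, or left out a sample. A covariate for the Actb gap, a fit without both sample 2 arrays and the counts of narrow intervals among bright probe sets were chosen after seeing the data. Figures were drawn with matplotlib 3.10.9.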

Additional observations from a re-analysis of the deposited data

How the results depend on the processing

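In all 17 other settings run, 0 members had an adjusted p under 0.05. Over all probe sets the count of 4 adjusted calls ranged from 3 to 12 with each sample left out (12 without probiotic sample 1, 9 without high-fat sample 1). The count of 1 member at an unadjusted p under 0.05 was 0 with median centring (5.13% of all probe sets) or eBayes without trend (6.13%), 2 with no filter (6.41%) or array weights (9.19%), 3 with Actb gap as covariate (2.38%), and 1 to 2 with each sample left out (4.27% to 9.51%). The replicate number as a block gave 2 members at an unadjusted p under 0.05 (8.20% of all probe sets) and 4 adjusted calls over all probe sets. Same-numbered samples correlated at 0.144, 0.027 and 0.0774 in their deviations from the group means. Every sample but probiotic sample 2 correlated best with its own number. Deviations from a mean of 3 samples depend on each other, so these values cannot decide whether the numbers pair the samples. The median over the members was 0.213 when the Actb gap entered the fit, against 0.016 over all probe sets tested. The sign of the difference held in every setting in which the probe set passed the filter for 12 of the 39 members (all 17 settings for Gstt3, Ugt2b10 and Gstm7, but 16 for a Gstt2 probe set and 15 for Ugt2b7), and 27 took the other sign at least once.

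Of the 17 tested members named by the rule, 13 changed sign as follows, Sult2a6 (-0.60) the only one over 0.21 in size, and the cause was not tested. With that gap in the fit the difference was 0.231 for Gsta1, 0.317 for Gsta4, 0.186 for Gstm1, 0.213 for Gstm2, 0.311 for Gstt1, 0.0312 for Mgst1, 0.0175 for Sult1a1, 0.309 for Sult1b1, 0.245 for Sult2a6 and 0.920 for Ugt2b1. The gap did not overlap between the groups, so these differences hardly separate gap from group. The smallest adjusted p of the members in that limma fit was 0.9999. Without both sample 2 arrays it was 0.0152 for Gsta1, 0.0401 for Gsta4, 0.0495 for Gstm1, 0.0106 for Gstm2, 0.104 for Gstt1, 0.00637 for Mgst1, 0.210 for Sult1b1, -0.0439 for Sult1c3 and 0.556 for Ugt2b1. Array weights gave 0.0299 for Gstt1, 0.0764 for Sult1b1, -0.0441 for Sult1c3 and 0.247 for Ugt2b1, median centring 0.0289 for Ugt2b1, and no normalization -0.0351 for Sult1c3. With each sample left out the ranges were -0.249 to 0.0744 for Gsta1, -0.344 to 0.0290 for Gsta3, -0.324 to 0.107 for Gsta4, -0.116 to 0.104 for Gstm1, -0.290 to 0.0312 for Gstp1, -0.212 to 0.185 for Gstt1, -0.0435 to 0.0167 for Mgst1, -0.0884 to 0.140 for Sult1b1, -0.116 to 0.148 for Sult1c3 and -0.308 to 0.384 for Ugt2b1.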

Other observations

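The 4 probe sets that carry several symbols, and so are no members, gave no call either. The brighter of the probe sets listed with 8 Ugt1a symbols had log2 signals of 14.75, 15.03 and 15.07 in the probiotic samples, against 14.56, 15.01 and 14.84 in the high-fat samples. The other was 13.95, 13.44 and 14.08 in the probiotic samples, against 13.93, 14.08 and 13.85. The groups overlap at both, and the differences were 0.15 (SE 0.15) and -0.13 (SE 0.18). Ugt1a enzymes conjugate bilirubin, thyroxine and phenols, and their transcripts share all exons but the leading one. The probe set listed with both Gsta2 and Gsta5 was 14.61, 14.20 and 14.64 in the probiotic samples, against 14.81, 14.17 and 14.31 (difference 0.05, SE 0.19). The probe set listed with Sult1c2 and RGD1562392 was 10.52, 10.41 and 10.06 in the probiotic samples, against 10.12, 9.48 and 10.34 (difference 0.35, SE 0.26).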
